A study of Rattus norvegicus with 6 samples.

Results

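Transcripts of 7 genes of the calyceal junction, the adhesion complex between the type I hair cell (HC) and the calyx-shaped afferent terminal around it, were followed in the rat vestibular epithelium. The genes were chosen by symbol: Cntnap1, Cntnap2, Cntn1, Tnc, Ptprz1, Nfasc and Nrcam. A row was present for 6 of the 7 among the 32883 genes of the table, and Cntnap2 is not analysed here. RNA came from 6 Long-Evans rats. The 3 Control rats received PBS, and the 3 STREP rats received streptomycin in PBS subcutaneously at 500 mg/kg once a day. Injections began on postnatal day 21 and lasted 6 weeks in both groups. Control 3 and STREP 3 were females and the other 4 animals males. The utricles and cristae of an animal were pooled into 1 library, which held HCs, supporting cells and afferent terminals. In the dissection the epithelia were cleaned of adjacent tissue, and the cell bodies of the afferents lie outside the epithelium, in the vestibular ganglion.

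At the calyceal junction the membranes of HC and calyx are held together by septa like those beside the nodes of Ranvier. There the calyx membrane carries CASPR1 (gene Cntnap1) bound to the GPI-anchored contactin-1 (Cntn1). Neurofascin (Nfasc) and NrCAM (Nrcam) are L1-family adhesion molecules that tie contactins and axonal channels to the ankyrin and spectrin skeleton, and the glial form of neurofascin faces the CASPR1 and contactin-1 pair at myelinated fibres. Ptprz1, a receptor tyrosine phosphatase with a chondroitin sulphate ectodomain, and tenascin-C (Tnc), a hexameric matrix glycoprotein, both bind contactin-1.

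Upstream sequence is given for Tnc, since it alone among the measured members passed both thresholds, and for Cntn1, the binding partner that did not. RefSeq promoters on GRCr8 were found for 3 of the 7 genes, Tnc, Cntn1 and Nfasc. The 250 bases before the start are printed 5′ to 3′ on the strand of the gene. Those of Tnc occupy chr5:82476132-82476381 on the minus strand and those of Cntn1 chr7:125252060-125252309 on the plus strand. Capitals mark TATAA.
Tnc: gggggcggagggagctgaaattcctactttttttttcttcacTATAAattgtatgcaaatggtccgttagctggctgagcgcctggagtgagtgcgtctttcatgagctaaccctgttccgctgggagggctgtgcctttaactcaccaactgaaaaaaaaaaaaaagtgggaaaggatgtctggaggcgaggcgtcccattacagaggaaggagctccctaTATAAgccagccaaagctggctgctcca
Cntn1: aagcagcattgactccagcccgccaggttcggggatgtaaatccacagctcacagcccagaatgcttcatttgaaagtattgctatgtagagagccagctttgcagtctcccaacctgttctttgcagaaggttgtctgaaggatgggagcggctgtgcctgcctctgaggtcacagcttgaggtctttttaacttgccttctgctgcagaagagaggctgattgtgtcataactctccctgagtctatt
The letters TATAA, searched on both strands, occurred 2 times before Tnc, starting 208 and 28 bases before the start, and 0 times before Cntn1. They were found on either strand in 24.0% of 33469 rat promoters of this length. GGGCGG was found in 1 place before Tnc and in 0 before Cntn1, against 30.5% of all promoters with at least 1 match. CCAAT was in neither, against 34.0% of all. GC content was 49.6% for Tnc and 50.0% for Cntn1, beside a median of 51.2%. A match is a description of letters, and binding was not measured here.

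Expression was compared with DESeq2 on counts divided by a library size factor (normalised counts), and a gene is termed called at an adjusted p (Benjamini-Hochberg) under 0.05 together with a fold change over 1.5 in either direction. Library totals were 48568191 to 59906048 counts in Control and 29333584 to 33744909 in STREP rats, so depth separated the groups. Tnc and Ptprz1, here called the matrix and phosphatase genes, were both lower after streptomycin. Cntnap1, Cntn1, Nfasc and Nrcam are here called the calyx-side genes, after the place of their proteins and not the cells that make the RNA. Of these 4 measured genes, 0 were called by DESeq2 or by edgeR, and 0 had an unadjusted p under 0.05. Their mean normalised counts were 37.82 for Cntnap1, 10710 for Cntn1, 1201 for Nfasc and 4025 for Nrcam. Which cells held these transcripts was not tested. Of the 6 measured members, 1 was called lower, beside 1.37% of the 16250 genes tested, and 0 higher, beside 1.87%, with 3.24% called in all. At an adjusted p under 0.05 alone, 2 members were lower, beside 1.62%, of 3.72% in either direction. The groups did not overlap for 3 of the 6 members, 2 lower and 1 higher, beside 8.63% of all genes lower, 9.12% higher and 17.8% in all. The median log2 fold change over all genes tested was 0.00691. In these whole epithelia, fewer cells of a type and less RNA per cell cannot be told apart.

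Tnc (ENSRNOG00000058645) was downregulated. Its normalised counts were 5298, 5232 and 5260 in Control 1, 2 and 3, and 3257, 3423 and 3732 in STREP 1, 2 and 3. All 3 STREP rats lay below all 3 Control rats, and the coefficient of variation was 0.627% in Control and 6.96% in STREP rats. The means were 5263 ± 33.0 and 3470 ± 241 (SD, n = 3), and the log2 fold change was -0.60 ± 0.12 (SE; 95% interval -0.84 to -0.36; DESeq2 adjusted p = 0.0001). The mean level fell by 34.1%, which is 1.52-fold between Control and STREP rats and just past the 1.5-fold limit. Without STREP 1 the log2 fold change was -0.56, inside the limit, with an adjusted p of 0.00362 by DESeq2. With library totals in place of size factors the adjusted p was 0.0556 at a log2 fold change of -0.62, while edgeR with a count filter gave an adjusted p of 0.0227.

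Ptprz1 (ENSRNOG00000006030) was also lower in STREP rats. Its normalised counts were 9628, 9153 and 8239 in Control rats and 6031, 6943 and 5659 in STREP rats. Every STREP value was again below every Control value. The means were 9007 ± 706 and 6211 ± 661 (SD, n = 3), and the log2 fold change was -0.54 ± 0.14 (SE; 95% interval -0.81 to -0.26; DESeq2 adjusted p = 0.00528). The mean level fell by 31.0%, but at 1.45-fold Ptprz1 stayed inside the 1.5-fold limit and was not called. The study lists Ptprz1 among genes lowered both in STREP rats and in rats given another compound, IDPN. Its stated thresholds match those used here, so the study's call of Ptprz1 was not reproduced, and the reason was not tested. That list drew partly on these samples, so the direction of Ptprz1 is not independent evidence. Its significance depended on the fit: edgeR with a count filter gave an adjusted p of 0.0912, library totals 0.393, and DESeq2 gave 0.0641, 0.0519 and 0.0577 without Control 1, Control 2 and STREP 1. Without Control 3 or STREP 2 the log2 fold change was -0.60 or -0.63 and Ptprz1 was called.

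**Figure D1:**
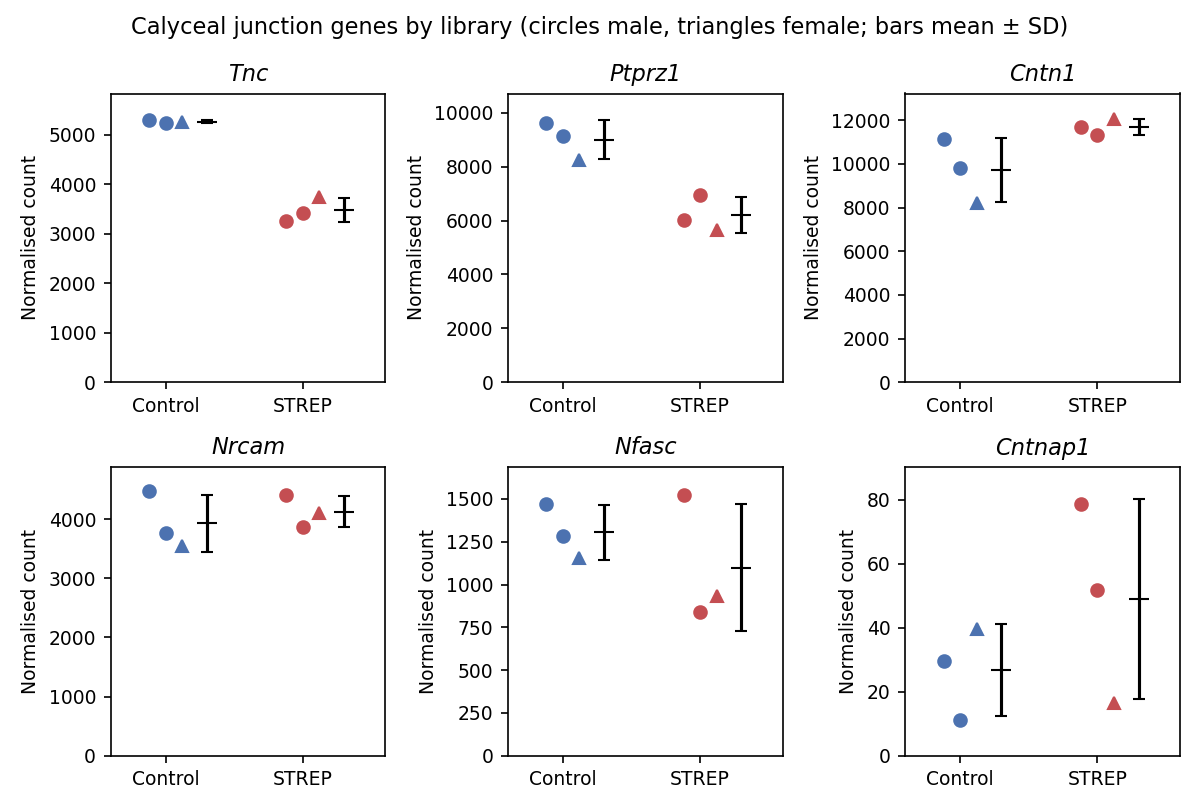
Normalised count (y axes, each from 0) of the 6 measured members in each library, with circles for males, triangles for females and bars for mean ± SD (n = 3). Tnc and Ptprz1 are lower in every STREP rat than in every Control rat, Cntn1 is higher in every STREP rat, and the groups overlap for Nrcam, Nfasc and Cntnap1.

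Tnc and Ptprz1 were both lower in either sex. On the log2 scale the ratio of STREP to Control means was -0.66 in males and -0.49 in the 1 female pair for Tnc. For Ptprz1 it was -0.53 in males and -0.54 in females. The difference between the sexes, an interaction term in DESeq2, was 0.16 ± 0.28 for Tnc and -0.01 ± 0.27 for Ptprz1 (SE; adjusted p = 0.999 for both).

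Cntn1 (ENSRNOG00000004438), the contactin that Tnc and Ptprz1 bind, was not lower. Its normalised counts were 11149, 9802 and 8222 in Control rats and 11680, 11338 and 12058 in STREP rats. Each STREP rat was above each Control rat, as in 9.12% of all genes. The means were 9724 ± 1465 and 11692 ± 361 (SD, n = 3), and the log2 fold change was 0.27 ± 0.15 (SE; 95% interval -0.02 to 0.55; DESeq2 adjusted p = 0.469). The interval allowed a fold change from 0.987 to 1.46.

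Cntnap1 (ENSRNOG00000020277), which encodes the marker protein of the junction, was measured on few reads. The counts before normalisation were 48, 13 and 46 in Control rats and 59, 48 and 11 in STREP rats. Normalised, these were 29.5, 11.1 and 39.6 in Control and 78.6, 51.8 and 16.5 in STREP rats. The groups overlapped, with STREP 1 and 2 highest and STREP 3 among the lowest. The means were 26.7 ± 14.5 and 48.9 ± 31.1 (SD, n = 3), and the log2 fold change was 0.88 ± 0.76 (SE; DESeq2 adjusted p = 0.766). The 95% interval ran from 0.656-fold to 5.14-fold, an interval that also held the 0.659-fold level of Tnc. The transcript of an afferent protein is counted here only as far as it lies in the epithelium, and protein was not measured in these libraries.

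Nfasc (ENSRNOG00000030515) did not pass the test. Its normalised counts were 1471, 1286 and 1156 in Control rats and 1522, 836.7 and 934.9 in STREP rats. STREP 1 held the highest value of all 6 libraries, and the other STREP rats the lowest. The log2 fold change was -0.25 ± 0.24 (SE; 95% interval -0.72 to 0.22; DESeq2 adjusted p = 0.809), and it was -0.56 without STREP 1. Reads were summed per gene, so the glial and neuronal forms of neurofascin were not separated.

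Nrcam (ENSRNOG00000004067) did not pass the test either. Its normalised counts were 4467, 3763 and 3545 in Control rats and 4398, 3866 and 4108 in STREP rats, with the groups interleaved. The log2 fold change was 0.07 ± 0.14 (SE; DESeq2 adjusted p = 0.95). The 95% interval, 0.863-fold to 1.28-fold, did not reach the 0.659-fold level of Tnc.

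**Figure D2:**
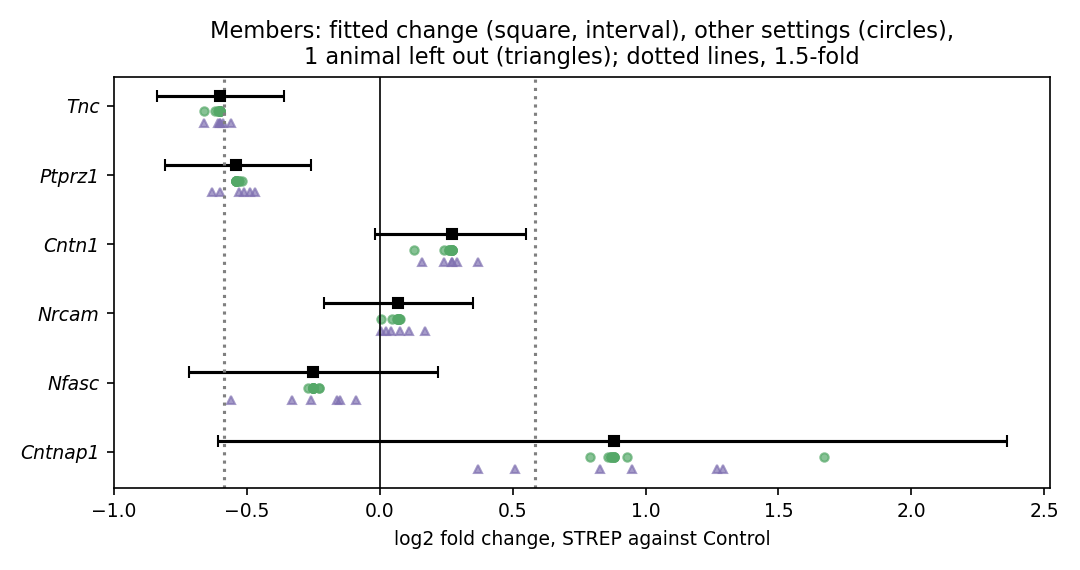
Log2 fold change of STREP against Control rats (x axis) for each member, as fitted with its 95% interval (squares), under other settings (circles) and with 1 animal left out (triangles), with dotted lines at 1.5-fold. Tnc sits at the dotted line and Ptprz1 just inside it, at -0.60 and -0.54, while the intervals of the other members include 0.

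The matrix and phosphatase genes were also set against Cntn1 as ratios within a library, where size factors cancel. These ratios of counts are not corrected for gene length and were compared only between groups; the 15 pairs of members were compared after the values above had been seen. The ratio of Tnc to Cntn1 was 0.475, 0.534 and 0.640 in Control rats and 0.279, 0.302 and 0.310 in STREP rats. That of Ptprz1 to Cntn1 was 0.864, 0.934 and 1.00 in Control and 0.516, 0.612 and 0.469 in STREP rats. Neither ratio overlapped between the groups, and the mean log2 ratio differed by -0.88 for Tnc and by -0.82 for Ptprz1 (exact two-sided permutation p = 0.1 for each, the smallest that 3 against 3 allows, and 0.25 adjusted over 15 pairs). This lack of overlap, and so the p, was fixed by the values above, where Tnc and Ptprz1 were lower and Cntn1 higher in every STREP rat. The ratios to Cntn1 therefore add no separate support. Against Nrcam the differences were -0.68 for Tnc and -0.61 for Ptprz1, with the same exact p. Against the remaining calyx-side genes, Nfasc and Cntnap1, the groups overlapped, and Cntnap1 was measured on few reads. Against Nfasc the differences were -0.31 for Tnc (exact permutation p = 0.5) and -0.25 for Ptprz1 (exact permutation p = 0.6), and against Cntnap1 they were -1.40 and -1.33 (exact permutation p = 0.3 for both). The ratio of Ptprz1 to Tnc was 1.82, 1.75 and 1.57 in Control and 1.85, 2.03 and 1.52 in STREP rats, and this overlapped (log2 difference 0.065, exact permutation p = 0.7). Within the calyx-side genes, the ratios of Cntn1 to Nrcam and of Cntn1 to Nfasc also did not overlap between the groups. Their mean log2 ratios were higher in STREP rats by 0.20 and 0.57 (exact permutation p = 0.1 for each, adjusted over 15 pairs 0.25).

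**Figure D3:**
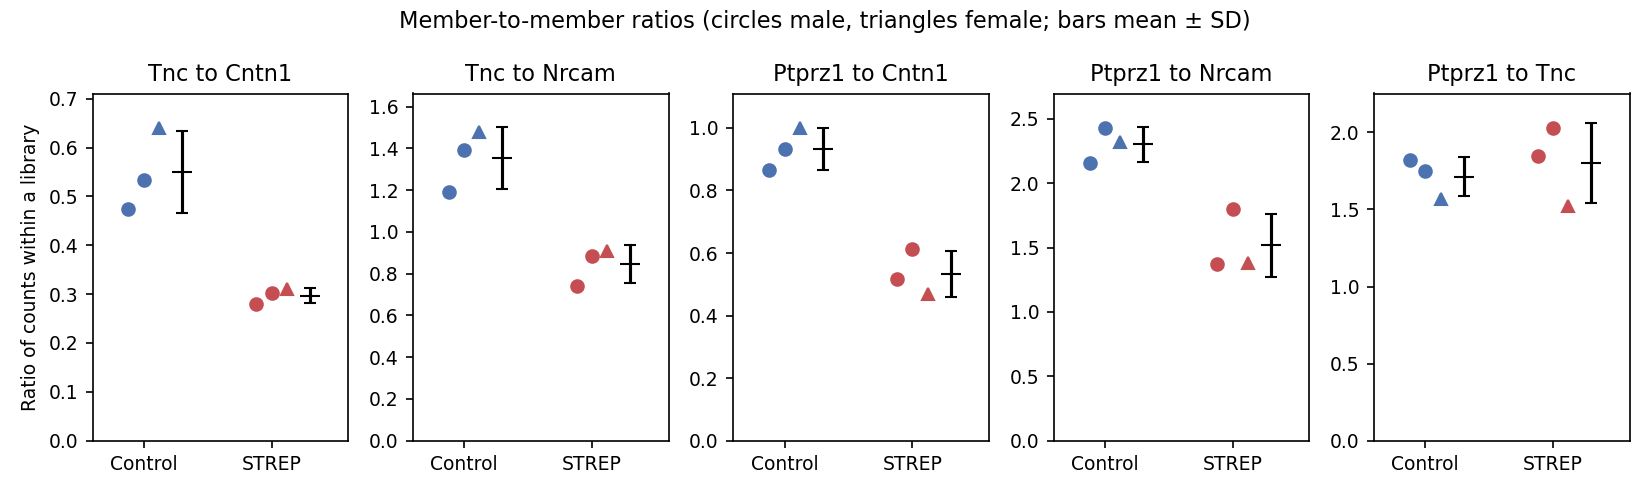
Ratio of the counts of 2 members within a library (y axes, each from 0) in Control and STREP rats, with circles for males, triangles for females and bars for mean ± SD (n = 3). The ratios of Tnc and Ptprz1 to Cntn1 and to Nrcam do not overlap between the groups, while that of Ptprz1 to Tnc does. The ratios of Tnc and Ptprz1 to Nfasc and to Cntnap1, which overlap, are not plotted. Those of Cntn1 to Nrcam and to Nfasc, which do not overlap, are not plotted either.

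Markers of the cells of the epithelium also moved, and their part in the member values was not tested. Of 7 type I HC markers tested, 6 were called lower (Adam11, Kcna10, Chgb, Atp2b2, Bdnf and Xirp2, from -1.87 to -0.75 on the log2 scale), and the list median was -0.93. The study names all 6 as lowered partly from these samples, so their direction is not independent. The summed level was 309361 to 414072 normalised counts in Control and 184656 to 331963 in STREP rats, of which Spp1 made up 85.1%. Of 15 general HC markers, 2 were called lower (Strc and Cib2) and 1 higher (Gfi1), with a median of -0.21. At an adjusted p under 0.05 alone, 4 were lower, beside 1.62% of all genes. These included Myo7a at -0.49 and Lhfpl5 at -0.45 (DESeq2 adjusted p = 0.0162 and 0.0161). The study also lists Myo7a and Lhfpl5 as lowered, partly from these samples. Here both stayed inside the 1.5-fold limit, as Ptprz1 did, and were not called. The general HC sums were 149285 to 155769 in Control and 131844 to 189592 in STREP rats, with 43.2% from Ush1c. Ush1c stood at 56504, 53740 and 101030 in STREP 1, 2 and 3. Of 9 supporting cell markers 0 were called by DESeq2 or by edgeR and 2 had an unadjusted p under 0.05, with a median of 0.20. Their sums were 574677 to 731974 in Control and 646874 to 1120794 in STREP rats, with the highest in STREP 3 and 61.2% from Otog. Of these markers, 0 were at 0 counts in every library.

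Set against these sums within a library, the log2 ratio of Tnc to the general HC markers differed by -0.57 and that to the supporting cell markers by -0.89 (STREP minus Control), without overlap between groups. For Ptprz1 the differences were -0.50 and -0.82, also without overlap (exact permutation p = 0.1 for each of the 4, the smallest possible; adjusted over 14 ratios, 0.35). Against the type I HC sum, the log2 ratio of Tnc differed by 0.0034 (exact permutation p = 1) and that of Ptprz1 by 0.068 (exact permutation p = 0.9). With the mean of log2 values over the type I list in place of the sum, the differences were 0.46 and 0.53.

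**Figure D4:**
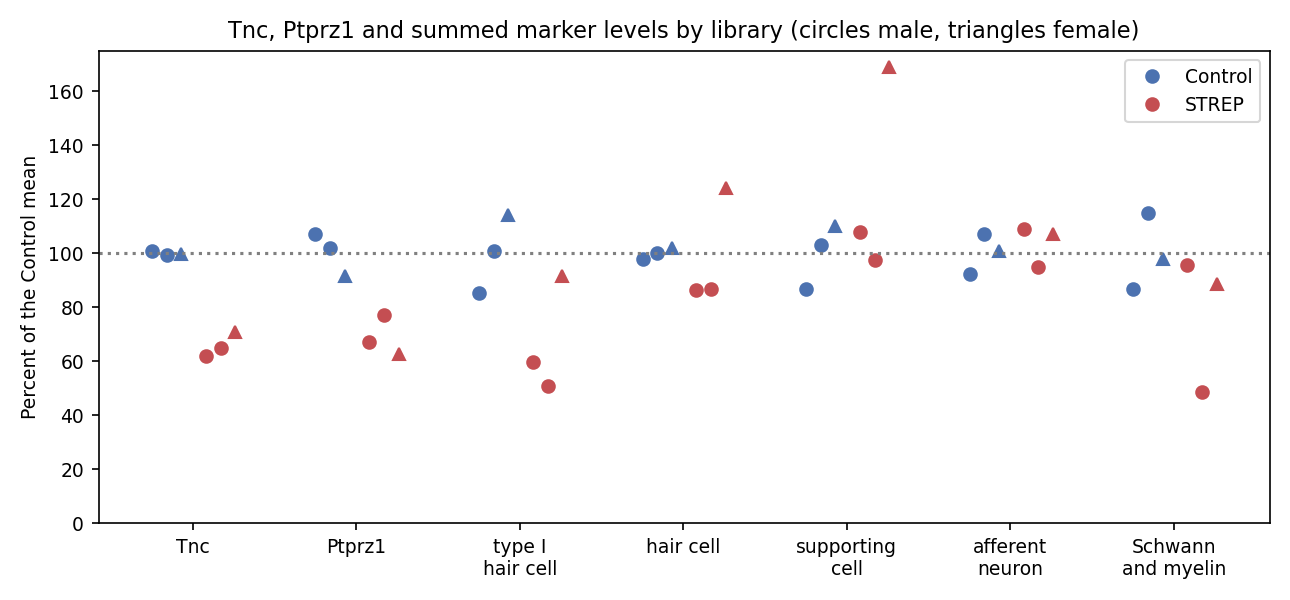
Normalised count of Tnc and Ptprz1 and the summed normalised counts of 5 marker lists, as a percent of the Control mean (y axis, from 0), for each library (circles male, triangles female). Tnc is at 61.9% to 70.9% and Ptprz1 at 62.8% to 77.1% in STREP rats, where the type I HC sum ranges from 50.8% to 91.4%.

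The calyx-side genes were set against markers of afferent neurons and of myelin. Of 12 afferent neuron markers, 0 were called lower and 1 higher, Tubb3, a neuronal tubulin, at a log2 fold change of 1.28. An unadjusted p under 0.05 was found for 3, Tubb3 and Stmn3 (higher) and Gap43 (lower, at -0.64). The 12 markers had a median of 0.18, with 7 above 0 and 5 below 0 on the log2 scale. Their sums were 12518 to 14540 in Control and 12896 to 14821 in STREP rats, so the groups overlapped, with 57.1% from Ntrk2. Of 11 Schwann cell and myelin markers, 9 were below 0 on the log2 scale and the median was -0.35. Prx was called lower and Sox10 higher, and 6 had an unadjusted p under 0.05, with Mbp, Mag, Cnp and Mal lower besides Prx. By edgeR with a count filter, Strc, Cib2, Tubb3 and Prx were not called (adjusted p = 0.153, 0.0606, 0.13 and 0.198). The Schwann sums were 263423 to 349849 in Control and 147758 to 289409 in STREP rats, with the lowest in STREP 2. Relative to the afferent sum, the log2 ratio of Cntn1 differed by 0.22 (exact permutation p = 0.4), that of Nfasc by -0.35 (exact permutation p = 0.3), that of Nrcam by 0.023 (exact permutation p = 1) and that of Cntnap1 by 0.74 (exact permutation p = 0.5). Relative to the Schwann sum, Cntn1 differed by 0.69 (exact permutation p = 0.2), Nfasc by 0.12 (exact permutation p = 0.9), Nrcam by 0.49 (exact permutation p = 0.3) and Cntnap1 by 1.21 (exact permutation p = 0.3). Nfasc thus had opposite signs against the 2 sums, and the groups overlapped for all 8 ratios. The groups of 3 could not reach a p below 0.1.

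Other genes of the junction were counted in 6 lists. Of 6 tested paralogues of the contactin, Caspr and L1 families, 0 were called by DESeq2 or edgeR and 0 had an unadjusted p under 0.05, at a median of -0.04. Chl1, an L1-family relative of Nrcam, had means of 1851 ± 96.5 and 1929 ± 354 normalised counts (SD, n = 3) and a log2 fold change of 0.06. Cntn4, another contactin, stood at -0.55 (DESeq2 adjusted p = 0.482) and at -0.23 without Control 1, and L1cam stood at 0.07. Among 23 tested scaffold and nodal partners 0 were likewise called by DESeq2 or edgeR, 0 had an unadjusted p under 0.05, and the median was -0.04. Those with the highest counts were the spectrins Sptan1 at -0.23 and Sptbn1 at -0.27, and Gldn, gliomedin, a Schwann cell ligand of neurofascin and NrCAM, at -0.45. Of the alternatives run, 1 called Gldn, that without STREP 1, at -0.85.

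Among the 17 channel genes placed at the calyx and its junction, 2 were called lower, beside 1.37% of all genes tested, and 0 higher. The list median was 0.14. Kcna10, a voltage-gated potassium channel, went from 13780, 17468 and 17544 normalised counts in Control to 5636, 5191 and 5755 in STREP rats, and the log2 fold change was -1.56 ± 0.14 (SE; DESeq2 adjusted p = 1.84e-24). Kcnab1, a potassium channel beta subunit, was also lower, at -0.66 on the log2 scale (DESeq2 adjusted p = 0.0036), which lost its call without Control 1 or STREP 1, with adjusted p = 0.0607 and 0.0576. The study chose both genes partly on these samples, so they are no independent sign of direction. It marks both as selective for HCs over supporting cells, and Kcna10 is also counted among the type I HC markers above. Kcna2, a potassium channel subunit of axons, was at -0.05.

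The relatives and receptors of Tnc and the ligands of Ptprz1 formed the remaining lists. Of 7 tested tenascins, hyalectans and link proteins, 0 were called by DESeq2 or edgeR and 0 had an unadjusted p under 0.05, at a median of 0.10, where the aggrecan gene Acan stood at 0.17, the versican gene Vcan at 0.10 and Hapln1 at 0.40. Of 9 integrin subunits that bind tenascin-C, 0 were called by DESeq2 or edgeR and 3 had an unadjusted p under 0.05 (Itga7, Itga8 and Itga9), at a median of -0.02. Itgb1 was at 0.15, Itgb6 at 0.11 and Itga7 at -0.53. Of 8 tested ligands and close relatives of Ptprz1, 1 was called higher, at a median of 0.04. This was Ptprs, a receptor tyrosine phosphatase that binds proteoglycans, with 992.3, 785.5 and 1184 normalised counts in Control and 1707, 1466 and 1601 in STREP rats, and the log2 fold change was 0.69 ± 0.19 (SE; DESeq2 adjusted p = 0.0121). Its adjusted p was 0.0752 by edgeR with a count filter, and by DESeq2 it was 0.073, 0.0848 and 0.118 without Control 1, Control 2 and STREP 1. Pleiotrophin (Ptn), a ligand of Ptprz1, was at 0.29, Ptprf at -0.05 and Sdc3 at 0.29. Whether Tnc or Ptprz1 differs from these genes was not tested.

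**Figure D5:**
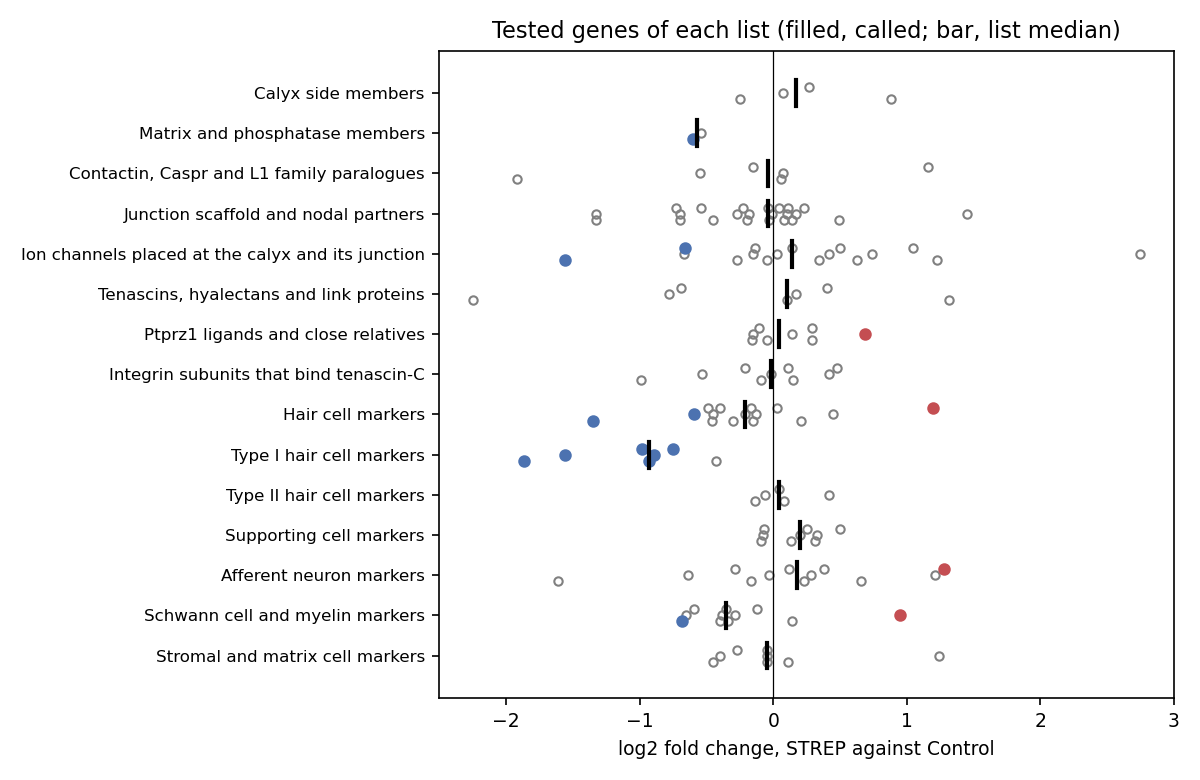
Log2 fold change of STREP against Control rats (x axis) of every tested gene in the member, junction and marker lists (y axis), with called genes filled in blue (lower) or red (higher), other genes open, and a bar at each list median. The matrix and phosphatase members and the type I HC markers have all their tested genes below 0.

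The genes whose pattern over the 6 libraries lay nearest to a member were searched among 12130 genes by the root mean square difference of log2 levels, each centred on its own mean. This difference includes the step between the groups, so genes with a similar fold change rank near, and a shared cell of origin was not tested. For Tnc these were Sept4, a septin, at 0.0557 and Fscn2, the fascin of HC stereocilia, at 0.0576. Their log2 fold changes were -0.61 and -0.64. For Ptprz1 the nearest were Hrasls at 0.0553 and Myo7a, the myosin of HCs, at 0.0602. Their log2 fold changes were -0.57 and -0.49. Cntn1 lay nearest to Gnl3l and Tgoln2, at 0.0405 and 0.0454, and Nrcam to Atg13 and Arnt, at 0.0323 and 0.0353. The nearest to Nfasc were Smpd4 and Rab38, at 0.0880 and 0.0983. The nearest to Cntnap1 lay farther off, Tmem116 at 0.350 and Fam219a at 0.368.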

How the data were processed

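RNA was measured in vestibular epithelium of 3 Control and 3 STREP rats, grouped by sample labels, with SMART-seq2 libraries. The authors aligned reads to Rnor6.0 with STAR (2.5.3a, per their processing notes), quantified genes with RSEM (1.3.0) and deposited expected counts without scaling; 0 values were not whole, and rounding changed nothing. Expected counts divide reads among similar genes. Counts of all genes were fitted in R 4.3.3 with DESeq2 1.42.0 (median-of-ratios size factors, group, Wald test, independent filtering), calling an adjusted p under 0.05 with a fold change over 1.5. Alternatives were edgeR 4.0.16, other scaling, filters and thresholds, sex as a covariate, males alone, thinning, and leaving out each animal. Within-library log2 ratios were compared by exact two-sided permutation (SciPy 1.17.1). A floor of 3 counts was 0.0501 to 0.102 CPM and covers counting error only. Named genes were all members, called listed genes of the junction lists, the 3 highest genes of each such list, and the 2 genes nearest each member. The members and lists were chosen with earlier results of these data known. Promoters came from RefSeq (GRCr8); no coordinates were converted. Genes of the lists without a row (Cntnap2, Cntnap3, Cntnap5a, Cask, Tnxb and Ocm) were not analysed here, and Cntn6, Cntnap5b and Cntnap5c had 0 counts in every library. Type II HC and stromal marker lists had 0 called of 5 and 8 genes by DESeq2 or edgeR (1 and 2 at an unadjusted p under 0.05), with medians of 0.04 and -0.05. The fits were tested on simulated counts with 200 genes changed 2-fold. Of these, DESeq2 recovered 124 and edgeR 94, so a gene that was not called may still differ. The share of false calls was above the nominal level with both tools, at 21.5% of calls with DESeq2 and 7.84% with edgeR.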

Additional observations from a re-analysis of the deposited data

Results flagged for a closer look

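Cntnap1 moved in opposite directions in the sexes. The log2 ratio of STREP to Control means was -1.27 in the 1 female pair and 1.69 in males, where both STREP males lay above both Control males. The interaction term of DESeq2 was -2.94 ± 1.74 (SE; unadjusted p = 0.0912, with no adjusted p given after independent filtering). Each library held 11 to 59 reads of this gene. Of the 6 members, 0 had an unadjusted interaction p under 0.05, while 34 of the 13134 genes with an adjusted p for the interaction had one under 0.05.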

How the results depend on the processing

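The 6 members kept their direction under every alternative run. Tnc (-0.60) lost its call with library totals (-0.62), with the fold limit inside the Wald test (-0.60, adjusted p = 1) and without STREP 1 (range with 1 animal left out -0.66 to -0.56). Ptprz1 (-0.54) passed once the fold limit was dropped (-0.54), and was called without Control 3 or STREP 2 (-0.63 to -0.47). Calls over all genes fell from 527 to 264 by edgeR with a filter and 295 without, 309 with library totals and 82 with the limit inside the test. By edgeR with a filter, calls were 0 among Ptprz1 ligands, 1 among HC, 0 among afferent and 1 among Schwann markers. With 1 animal left out, calls ranged from 0 to 2 among matrix and phosphatase members and from 1 to 2 among channels. They ranged from 0 to 1 among paralogues, scaffold partners, Ptprz1 ligands, integrins and afferent markers, 1 to 4 among HC and 1 to 3 among Schwann markers.

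Directions also reversed. With 1 animal left out, log2 fold changes ran from -0.25 to 0.30 for L1cam, -0.089 to 0.17 for Chl1, -0.24 to 0.12 for Kcna2, -0.17 to 0.46 for Acan, -0.12 to 0.29 for Vcan, -0.048 to 0.73 for Hapln1, -0.11 to 0.55 for Ptn, -0.16 to 0.031 for Ptprf and -0.017 to 0.19 for Itgb6. In males alone Vcan (-0.16), Ptn (-0.091) and Ptprf (0.017) reversed. Log2 ratio differences ran from -0.17 to 0.19 for Tnc and -0.19 to 0.38 for Ptprz1 to type I HC markers, -0.010 to 0.34 for Nfasc to Schwann markers (-0.0041 with mean log2 values), -0.054 to 0.18 for Nrcam to afferent markers, -0.027 to 0.18 for Ptprz1 to Tnc, -0.50 to 0.033 for Ptprz1 to Nfasc and -1.19 to 0.037 for Cntn1 to Cntnap1. The cause was not tested. No paired analysis was possible because the labels give no replicate numbers shared between the groups. The log2 fold change of Cntnap1 ran from 0.37 to 1.29 with 1 animal left out and was 0.86 with libraries thinned to the smallest total.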
